A study of Mus musculus with 16 samples.

Results

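The miR-15, miR-16, miR-195 and miR-497 family was followed in mouse 3T9 fibroblasts (a mouse embryo line that grows without limit) as they left quiescence. Its 6 members here are miR-15a-5p, miR-15b-5p, miR-15b-3p, miR-16-5p, miR-195a-5p and miR-497-5p, chosen by name from the 1167 mature miRNAs of the deposited count table. The last is listed there as miR-497a-5p, its current name, and is called so below. Every group was the same line, made quiescent without serum for 72 h and then returned to complete medium with 10% fetal bovine serum for 1, 2, 4, 6, 8, 10 or 12 h; the 0 h group had no serum given back. Each of the 8 times had 2 libraries, 1 from each of 2 independent experiments, and each library held 5852087 to 7783249 miRNA reads. A further time named in the design text is not analysed here.

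MicroRNAs are short RNAs that guide Argonaute proteins to messenger RNAs, mainly through the seed, the bases from position 2 to position 8 counted from the 5′ end. The miR-15/16 family is known for holding back the cell cycle and cell survival, with cyclin D1, cyclin E1 and Bcl2 among its targets, and the human miR-15a and miR-16-1 locus is often deleted in chronic lymphocytic leukaemia. A hairpin precursor gives a strand from each side, the 5p and the 3p arm, of which the more abundant is usually the one that acts. These are background facts, and no target was measured here.

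The mature sequences, taken from RefSeq (GRCm38.p6), show what the members share, with the seed in capitals.

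mmu-miR-16-5p: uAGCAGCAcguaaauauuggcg
mmu-miR-195a-5p: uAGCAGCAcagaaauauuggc
mmu-miR-15a-5p: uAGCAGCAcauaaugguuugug
mmu-miR-15b-5p: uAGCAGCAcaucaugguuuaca
mmu-miR-497a-5p: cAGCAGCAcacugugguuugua
mmu-miR-15b-3p: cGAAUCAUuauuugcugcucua

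The 5 members from the 5p arm carried the seed AGCAGCA, while miR-15b-3p, the opposite strand of the miR-15b hairpin, carried GAAUCAU. Outside the seed the 5p members differed. Counted from 1 at the 5′ end and read from miR-16-5p to the other, miR-195a-5p had 2 substitutions (G10A and U11G) over 21 compared positions, miR-15a-5p had 6 over 22, miR-15b-5p had 8 and miR-497a-5p had 11. Of the other mature miRNAs with the same seed, miR-322-5p was in the count table, and miR-195b, miR-6342, miR-6353 and miR-6419 are not analysed here. miR-503-5p has a close seed that differs by A8G.

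The hairpins lie in 3 clusters (GRCm38, from the annotation; the build the authors used is not given in the sources used here). Mir15a (chr14:61632027-61632110, minus strand) and Mir16-1 (chr14:61631880-61631972, minus strand) are 54 bases apart within the noncoding gene Dleu2, Mir15a in an intron and Mir16-1 overlapping an exon by 13 bases. Mir15b (chr3:69009772-69009835, plus strand) and Mir16-2 (chr3:69009902-69009996, plus strand) are 66 bases apart in an intron of Smc4, which codes for a condensin subunit. Mir497 (chr11:70234717-70234800, plus strand) and Mir195a (chr11:70235042-70235135, plus strand) are 241 bases apart, and Mir497 overlaps Mir497b on the other strand. Mature miR-16-5p is identical from both of its hairpins, so its reads cannot be assigned to a locus.

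No member of the family was called as changed over the 12 h after serum was given back. The F-test for any change over the course (edgeR quasi-likelihood, Benjamini-Hochberg adjustment over the 449 miRNAs tested, called at an adjusted p under 0.05) called 0 of 6 members, with adjusted p from 0.662 to 0.993, against 62 of the 449 tested (13.8%). No member had an unadjusted p under 0.05 in that test, and DESeq2 and limma-voom also called 0. Of 42 comparisons of a member at a later time with 0 h, 0 were called in edgeR and 1 had an unadjusted p under 0.05. Over all miRNAs the share called was 0.445% at 1 h, 2.45% at 2 h, 7.57% at 4 h, 7.8% at 6 h, 9.58% at 8 h, 11.8% at 10 h and 14.3% at 12 h, or 7.7% of all such comparisons. The linear trend over hours called 0 of 6 members in edgeR, DESeq2 and limma-voom, against 113 of 449 miRNAs (25.2%), and 0 members had an unadjusted p under 0.05 there in edgeR. A p above the threshold does not show that a level stayed the same, so intervals are given below for the sizes left possible. They come from the fits without the replicate number as a block, so differences between the 2 experiments add to their width. Since these are bulk samples, fewer cells and less RNA per cell cannot be told apart.

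miR-16-5p was the most abundant member by far and ranked 18 of 449 by mean level. In replicates 1 and 2 it stood at 12366 and 12460 CPM at 0 h, 11933 and 12244 at 1 h, 12280 and 10247 at 2 h, 11555 and 11558 at 4 h, 11073 and 10725 at 6 h, 12011 and 11936 at 8 h, 11594 and 11597 at 10 h, then 10741 and 10470 at 12 h (CPM, reads scaled to a common library size, on totals scaled by the trimmed mean of M-values, TMM). All 14 later libraries lay below both 0 h libraries, the highest of them at 12280 CPM against a lowest 0 h value of 12366 CPM. Across the table, 14 of 449 miRNAs (3.12%) had all later libraries below both 0 h libraries and 12 (2.67%) had them all above. At 12 h the level averaged 10605 ± 192 CPM, against 12413 ± 66.9 CPM at 0 h (SD, n = 2 each), a log2 change of -0.23 with a 95% interval of -0.43 to -0.02. That comparison had an unadjusted p of 0.0306 and an adjusted p of 0.135 in edgeR, so it was not called, where 14.3% of miRNAs were called at 12 h. The slope amounted to -0.13 on the log2 scale over 12 h (95% interval -0.27 to 0.01; adjusted p = 0.171, edgeR).

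miR-15b-5p and miR-15a-5p came next, and their ranges overlapped. miR-15b-5p stood at 362 and 459 CPM at 0 h, 449 and 562 at 1 h, 439 and 365 at 2 h, 322 and 467 at 4 h, 346 and 453 at 6 h, 386 and 443 at 8 h, 398 and 492 at 10 h, then 348 and 403 at 12 h. Its highest value was at 1 h in both experiments, where the log2 change was 0.30 (95% interval -0.16 to 0.76; adjusted p = 0.994, edgeR). miR-15b-5p was above miR-15a-5p in 12 of 16 libraries, with mean levels of 418 and 341 CPM, so the order of the 2 was not the same in every library. The libraries capture different sequences with different efficiency, so a level set between miRNAs is a ratio of reads and was not scaled for length, the members being 21 or 22 bases long.

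miR-15a-5p stood at 404 and 383 CPM at 0 h, 364 and 334 at 1 h, 386 and 282 at 2 h, 376 and 291 at 4 h, 370.4 and 284 at 6 h, 382 and 295 at 8 h, 360.2 and 276 at 10 h, then 357 and 309 at 12 h. Of the 14 later libraries, 13 lay below both 0 h libraries, and the exception was 2 h replicate 1 at 386 CPM. That library was still below the 0 h library of its own experiment (404 CPM), as was every other later library. How many other miRNAs met either condition was not counted. The log2 change from 0 h was negative at all 7 later times, between -0.31 and -0.17, and none was called (adjusted p from 0.416 to 0.994, edgeR). These 7 comparisons share the 0 h libraries and are not independent. The log2 slope over 12 h was -0.17 (adjusted p = 0.385, edgeR). With the replicate number as a block it was -0.18 (adjusted p = 0.122, edgeR), also not called, where 31.4% of miRNAs were called. The 2 experiments differed throughout. Replicate 2 was lower at 8 of 8 times, by a median of -0.37 on the log2 scale. For miR-15b-5p replicate 2 was higher at 7 of 8 times, by a median of 0.32, whereas for miR-16-5p it was higher at 4 of 8 times, with a median difference of -0.0044. Each experiment was sequenced in its own run, so the run and the experiment cannot be told apart.

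miR-15b-3p, the less abundant strand of the miR-15b hairpin, stood at 122 and 136 CPM at 0 h, 120.0 and 129.9 at 1 h, 121 and 138 at 2 h, 101 and 132 at 4 h, 127 and 106 at 6 h, 109 and 106 at 8 h, 115 and 102 at 10 h, then 125 and 128 at 12 h. Its log2 slope over 12 h was -0.15 (95% interval -0.38 to 0.09; adjusted p = 0.371, edgeR). The later and the 0 h values overlapped, with 8 of 14 later libraries below both 0 h libraries and 1 above.

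The members of the chromosome 11 cluster were scarce, at ranks 276 (miR-497a-5p) and 301 (miR-195a-5p) of 449 by mean level. miR-497a-5p stood at 7.83 and 7.85 CPM at 0 h, 8.33 and 7.62 at 1 h, 7.80 and 6.34 at 2 h, 8.09 and 8.71 at 4 h, 8.60 and 7.73 at 6 h, 9.41 and 8.98 at 8 h, 8.18 and 7.12 at 10 h, then 6.13 and 9.75 at 12 h. miR-195a-5p stood at 5.32 and 5.95 CPM at 0 h, 5.38 and 8.20 at 1 h, 4.26 and 4.38 at 2 h, 4.93 and 5.46 at 4 h, 7.17 and 5.55 at 6 h, 5.65 and 7.63 at 8 h, 5.56 and 7.58 at 10 h, then 4.93 and 6.45 at 12 h. Values of both crossed those at 0 h in either direction. These levels rest on 41 to 67 reads per library for miR-497a-5p and 29 to 56 for miR-195a-5p, where a library with no read would still allow 0.385 to 0.513 CPM (3 counts of its total, counting error only). miR-497a-5p was above miR-195a-5p in 14 of 16 libraries, with mean levels of 8.03 and 5.90 CPM. The log2 slopes over 12 h were 0.08 for miR-497a-5p (95% interval -0.26 to 0.41) and 0.17 for miR-195a-5p (-0.28 to 0.62), with adjusted p of 0.782 and 0.614 (edgeR).

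**Figure D1:**
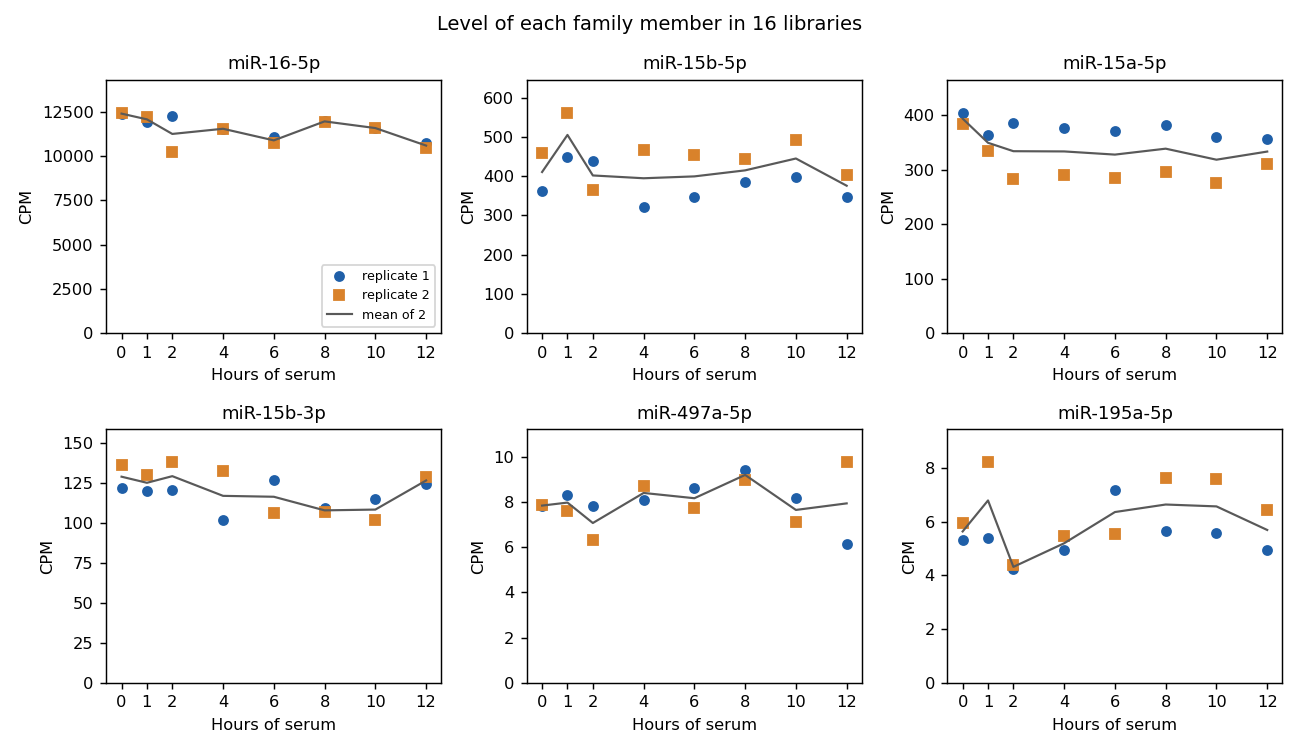
Level of each member in CPM (linear axes from 0) against hours of serum; circles are replicate 1, squares replicate 2 and the line their mean. miR-16-5p ran between 10247 and 12460 CPM and lay below both 0 h values in all 14 later libraries, and miR-15a-5p was lower in replicate 2 at every time.

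**Figure D2:**
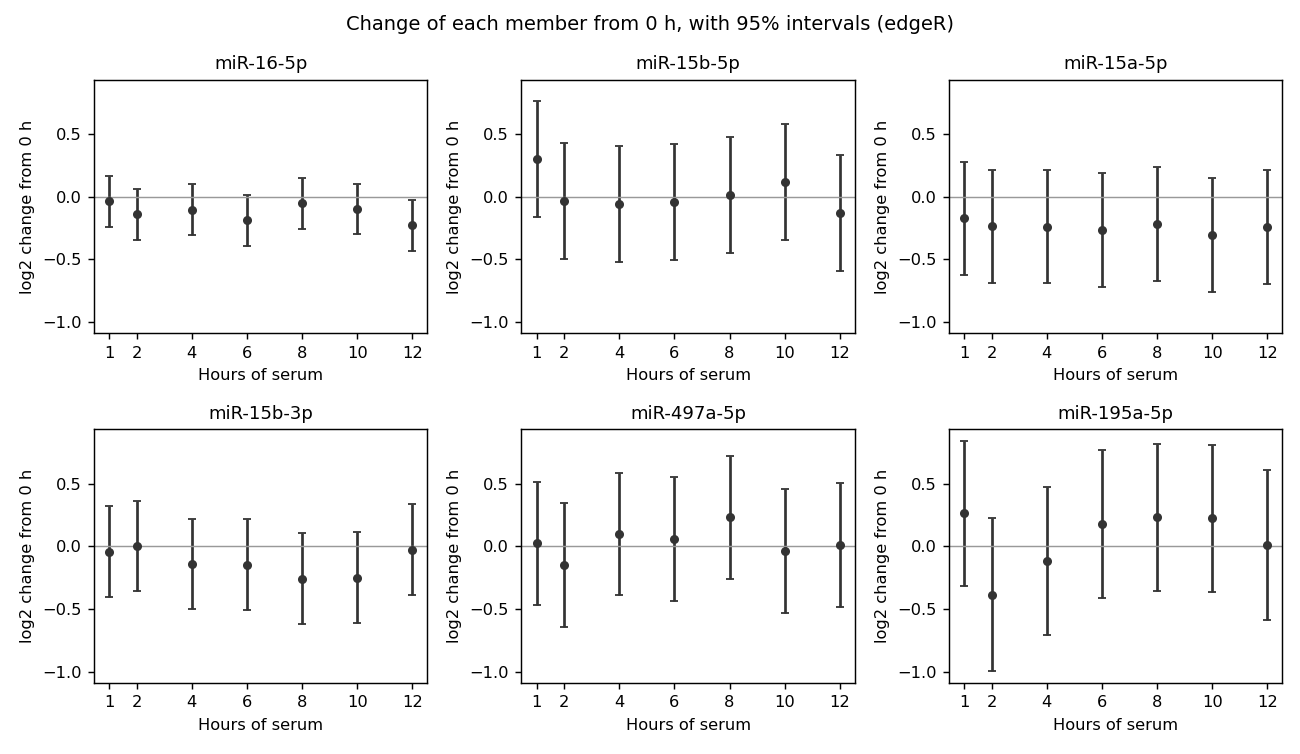
Log2 change of each member from 0 h at the 7 later times, with 95% intervals from the edgeR fit over 16 libraries. The interval of miR-16-5p at 12 h (-0.43 to -0.02) is the one that does not reach 0, and none of the 42 changes was called after adjustment.

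By reads, the 5p family was almost all miR-16-5p. It made up 93.1% to 94.2% of the reads of the 5 members from the 5p arm in each library. miR-15b-5p made up 2.63% to 4.27%, miR-15a-5p 2.23% to 3.14%, miR-497a-5p 0.0535% to 0.0871% and miR-195a-5p 0.0324% to 0.0624%. Together the 5 members took 1.06% to 1.41% of all miRNA reads. miR-322-5p, which carries the same seed but comes from chromosome X, added 9.499% to 17.1% of the summed CPM of the 5 members and itself.

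The 4 members above 10 CPM varied less over the course than the median miRNA above 10 CPM, a median not matched for level. Steadiness was taken as the SD of log2 level over the 8 time means (0.5 CPM added) and ranked among the 266 miRNAs that averaged 10 CPM or more, the steadiest first. The SD was 0.0768 for miR-16-5p (rank 33), 0.0928 for miR-15a-5p (rank 53), 0.107 for miR-15b-3p (rank 75) and 0.132 for miR-15b-5p (rank 104), beside a median of 0.158 over the 266. The distance between the highest and lowest time mean was 0.23 for miR-16-5p, 0.31 for miR-15a-5p, 0.26 for miR-15b-3p and 0.43 for miR-15b-5p, beside a median of 0.45. These ranks are a description with no test, and 32 miRNAs were steadier than miR-16-5p by this measure. Counting error is larger at low levels and adds to the SD, so a rank depends in part on level. Nearest to miR-16-5p in mean level, the SD was 0.0493 for miR-191-5p, 0.0575 for miR-30d-5p, 0.118 for let-7a-5p and 0.158 for miR-31-5p. Nearest to miR-15b-5p it was 0.113 for miR-99a-5p, 0.174 for miR-101b-3p, 0.0400 for miR-181d-5p and 0.139 for miR-328-3p. By these neighbours miR-15b-5p did not stand out as steady for its level. The SD for miR-497a-5p was 0.103 and for miR-195a-5p 0.204, below the level at which miRNAs were ranked. Steady did not mean free of spread beyond counting. Over the 16 libraries the chi-square per degree of freedom was 288 for miR-16-5p, 67.2 for miR-15b-5p, 38.6 for miR-15a-5p and 8.23 for miR-15b-3p, beside a median of 23.9, and it was 1.61 for miR-195a-5p and 0.782 for miR-497a-5p. At the same relative spread this measure grows with the number of reads. It therefore does not rank miRNAs of unlike level by how much they varied.

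**Figure D3:**
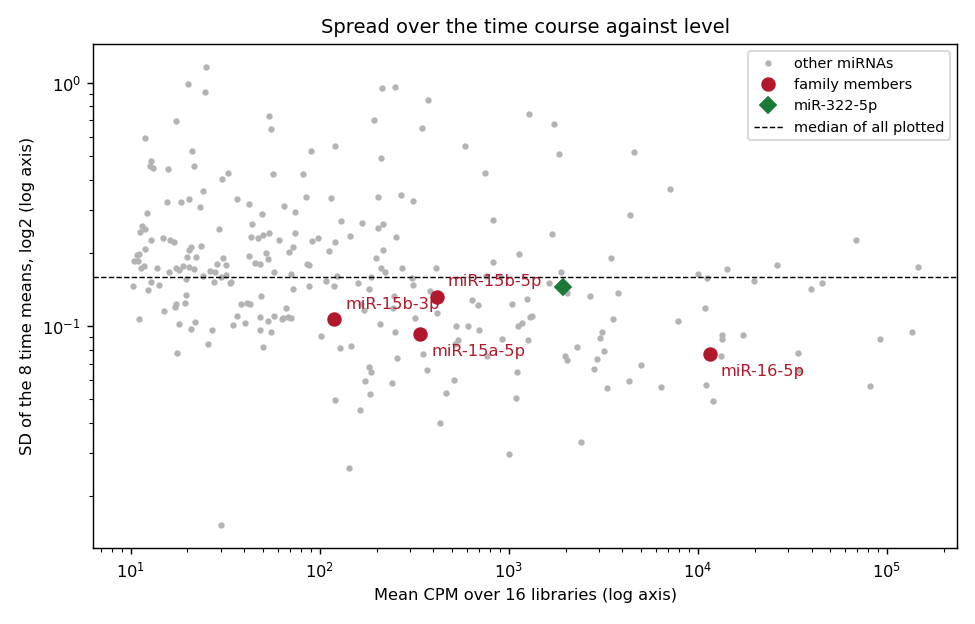
SD of the 8 time means on the log2 scale against mean CPM (log axes) for the 266 miRNAs that averaged 10 CPM or more; the dashed line is their median, 0.158. The 4 members plotted lie below it, miR-16-5p at 0.0768, and miR-322-5p lies at 0.145.

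The scaling decided how many trends were called. TMM sets the middle of the table near no change (a median log2 slope of -0.01 over 12 h across the 449), whereas plain division by the total reads gave a median of -0.17. With total counts 3 of 6 members were called lower, against 24.7% of all miRNAs called lower. These were miR-16-5p at -0.29 (adjusted p = 0.00319), miR-15a-5p at -0.33 (adjusted p = 0.0472) and miR-15b-3p at -0.31 (adjusted p = 0.0453; log2 over 12 h, edgeR). Relative to that shift of the whole table their slopes were close to those under TMM. The median slope of the 6 members was -0.13 with TMM and -0.29 with total counts.

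Each member had its own mix of read ends. The table sorts reads into those with both reference ends, those trimmed, and those extended at the 3′ or the 5′ end, with 3′ bases that match the hairpin (templated) or do not. What each class holds was taken from its name. Over the 16 libraries, 91.0% of miR-16-5p reads had both reference ends, and 7 of the 244 miRNAs with at least 100 reads per library had a larger share. The median over those 244 was 41.9%. miR-15b-5p had 76.8% of its reads at the reference ends and 21.9% trimmed. miR-15a-5p ran the other way, with 23.9% at the reference ends and 70.6% trimmed, beside a median trimmed share of 16.6% over the 244.

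The other members differed again. miR-15b-3p had 56.4% of its reads trimmed, 22.3% at the reference ends and 21.0% with non-templated 3′ bases, the last beside a median of 7.32%. miR-497a-5p had 48.6% at the reference ends and 47.4% trimmed, from 875 reads in all. miR-195a-5p, from 640 reads, had 51.4% with a templated 3′ extension, 40.8% at the reference ends and 0.469% trimmed. Its reference in RefSeq is 21 bases long, 1 shorter than miR-16-5p. The release of the reference behind the count table is not given in the sources used here.

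The bases that follow each reference 3′ end in its hairpin set which added base counts as templated. They are shown in capitals after the mature sequence (RefSeq, GRCm38.p6), for miR-16-5p from each of its 2 hairpins.

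miR-16-5p in Mir16-2: uagcagcacguaaauauuggcgUAGU
miR-16-5p in Mir16-1: uagcagcacguaaauauuggcgUUAA
miR-15b-5p in Mir15b: uagcagcacaucaugguuuacaUACU
miR-195a-5p in Mir195a: uagcagcacagaaauauuggcAUGG
miR-497a-5p in Mir497: cagcagcacacugugguuuguaCGGC
miR-15b-3p in Mir15b: cgaaucauuauuugcugcucuaG

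For miR-16-5p and miR-15b-5p the next base is U, so a read with a single added U falls among the templated extensions. The non-templated U form held 25 of 1261494 reads of miR-16-5p and 17 of 45568 of miR-15b-5p. Templated 3′ extension held 2.86% of miR-16-5p reads and 0.584% of miR-15b-5p reads. In miR-15b-3p, where the next base is G, an added U held 9.11% and an added A 8.95% of reads. In miR-15a-5p an added U held 2.54% and an added A 1.43%. miR-195a-5p is followed by A, yet its non-templated A form held 3.28% of reads (21 of 640). The median share of added A was 1.37% over the 244 miRNAs with at least 100 reads per library.

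Of the end forms, 3 of 27 tested in 4 members changed over time, against 469 of 1366 in the table (34.3%). The test was a linear trend of the log2 odds of a form within its miRNA (limma, Benjamini-Hochberg adjustment over the 1366). miR-195a-5p and miR-497a-5p had too few reads to be tested. The forms of a miRNA divide the same reads, and the added-base forms are parts of the non-templated form. Calls within a miRNA are therefore not independent.

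The trimmed share of miR-15b-3p fell. In replicates 1 and 2 it was 57.8 and 57.5% at 0 h, 57.2 and 58.7 at 1 h, 59.3 and 60.5 at 2 h, 61.9 and 55.7 at 4 h, 59.1 and 52.5 at 6 h, 57.6 and 57.3 at 8 h, 54.3 and 50.3 at 10 h, then 49.1 and 51.0 at 12 h. Both 12 h libraries lay below both 0 h libraries, at 50.04% ± 1.33 at 12 h against 57.6% ± 0.180 at 0 h (SD, n = 2 each). The change over 12 h was -0.46 in log2 odds (95% interval -0.70 to -0.22; adjusted p = 0.00482, limma). In replicate 1 alone it was -0.43 and not called, and in replicate 2 alone it was -0.49 and called. Over all miRNAs, 46 of 219 trimmed shares (21%) were called lower. A single library's share had a 95% Wilson interval of at most 3.89 percentage points to each side, for counting error only.

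The non-templated 3′ share of miR-15b-3p rose, at 22.6% ± 2.22 at 12 h against 19.2% ± 1.60 at 0 h (SD, n = 2 each), with a change of 0.35 in log2 odds over 12 h (95% interval 0.08 to 0.63; adjusted p = 0.0459, limma). Over all miRNAs, 34.2% of such shares were called higher. Leaving out 1 library at a time gave changes of 0.31 to 0.43, and the call was lost in 11 of 16 omissions. It held without 4 h or 6 h replicate 2 and without 8 h, 10 h or 12 h replicate 1. Without both 0 h libraries the change was 0.34 and not called, and in replicate 1 alone it was 0.060 and not called.

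The third was the share of miR-16-5p reads with mixed added bases. It was 0.146 and 0.138% at 0 h, 0.139 and 0.183 at 1 h, 0.146 and 0.153 at 2 h, 0.156 and 0.176 at 4 h, 0.157 and 0.216 at 6 h, 0.201 and 0.223 at 8 h, 0.196 and 0.1999 at 10 h, then 0.203 and 0.245 at 12 h. All libraries from 4 h on lay above both 0 h libraries, with 0.224% ± 0.0294 at 12 h against 0.142% ± 0.00566 at 0 h (SD, n = 2 each). The change over 12 h was 0.63 in log2 odds (95% interval 0.38 to 0.88; adjusted p = 0.000463, limma). Mixed additions were called higher in 56 of 144 miRNAs (38.9%), so this direction was common in the table. The form held 104 to 163 reads per library.

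With the replicate number as a block, 7 of the 27 end forms were called, against 46.2% of the 1366 in the same fit. The added ones were the reference-end share of miR-15a-5p (-0.22 in log2 odds over 12 h, adjusted p = 0.0166), its trimmed share (0.20, adjusted p = 0.0274), and in miR-15b-3p the added A (0.48, adjusted p = 0.0261) and the mixed additions (0.64, adjusted p = 0.0288; limma).

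**Figure D4:**
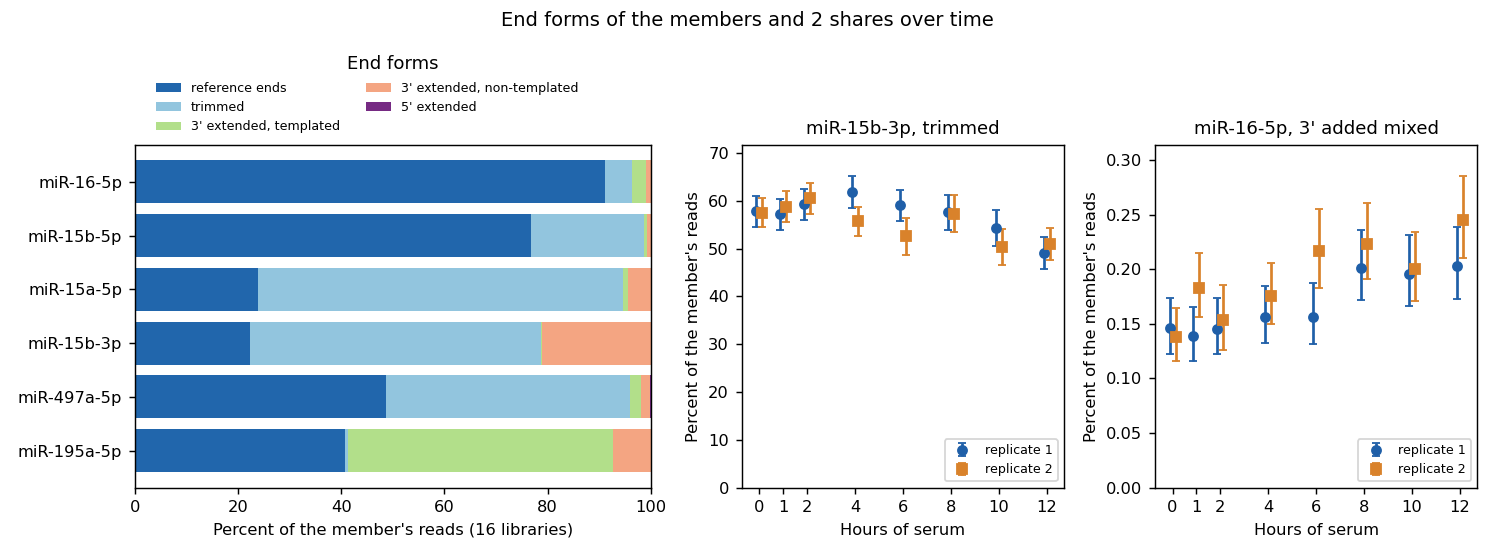
Left, the share of each member's reads in 5 end forms over 16 libraries, in percent. Middle and right, the trimmed share of miR-15b-3p and the mixed-addition share of miR-16-5p in each library against hours of serum, with 95% Wilson intervals; the first was 50.04% at 12 h against 57.6% at 0 h and the second 0.224% at 12 h against 0.142% at 0 h.

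In miR-16-5p, miR-15a-5p and miR-15b-3p the shares of added A and added C differed between the 2 experiments in the same order at every time. The A form of miR-16-5p held 0.621% to 0.764% of reads in replicate 2 and 0.333% to 0.453% in replicate 1, and was higher in replicate 2 at 8 of 8 times. Its C form held 0.0287% to 0.0470% in replicate 2 and 0.155% to 0.195% in replicate 1, and was higher in replicate 1 at 8 of 8 times. miR-15a-5p and miR-15b-3p had the same order at 8 of 8 times for both bases. In miR-15b-5p the A form was higher in replicate 2 at 7 of 8 times and the C form, with 32 reads in all, was higher in replicate 1 at 8 of 8. Over the table, 58.6% of 133 tested A forms were higher in replicate 2 at every time and 0 were higher in replicate 1 at every time, and 66.2% of 65 tested C forms were higher in replicate 1 at every time.

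The 3p arms had fewer reads than the 5p arms. The 5p to 3p read ratio had a median of 99.2 for miR-15a (64.4 to 179 over 16 libraries) and of 3.50 for miR-15b (2.65 to 4.85). The trend in arm balance was called for 0 of 2 family hairpins tested, against 23.4% of 94 hairpins, and 0 of the 2 had an unadjusted p under 0.05 (limma). The log2 ratio of 5p to 3p changed by 0.46 over 12 h for miR-15a (95% interval -0.14 to 1.06; adjusted p = 0.255) and by 0.03 for miR-15b (-0.36 to 0.42; adjusted p = 0.882). miR-195a had too few reads, and miR-16-5p comes from both loci and so was not set against either 3p arm.

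The 3p arms mark the 2 miR-16 loci, which the shared 5p arm cannot. Their mature sequences differ (RefSeq, GRCm38.p6, seed in capitals).

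mmu-miR-16-1-3p: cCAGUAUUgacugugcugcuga
mmu-miR-16-2-3p: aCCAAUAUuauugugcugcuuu

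miR-16-1-3p, from the Dleu2 locus on chromosome 14, changed over the course (adjusted p = 0.0268, edgeR), the only call for any change among the 4 opposite arms tested (miR-15a-3p, miR-16-1-3p, miR-16-2-3p and miR-195a-3p), against 13.8% of all miRNAs; miR-497a-3p is not analysed here. Its counts were 60 and 80 reads at 0 h, 73 and 84 at 1 h, 60 and 61 at 2 h, 26 and 44 at 4 h, 30 and 26 at 6 h, 41 and 26 at 8 h, 59 and 39 at 10 h, 83 and 55 at 12 h. The 6 libraries at 4, 6 and 8 h lay below both 0 h libraries. The share of all miRNAs with that order was not counted. At 6 h it averaged 4.34 ± 0.04999 CPM, against 9.61 ± 1.72 CPM at 0 h (SD, n = 2 each), a log2 change of -1.15 (95% interval -1.85 to -0.45; adjusted p = 0.0479, edgeR), where 7.8% of miRNAs were called. At 4 h the change was -1.09 (adjusted p = 0.0510, and 0.0246 with the replicate block, edgeR). At 12 h it was 0.13 (95% interval -0.50 to 0.77; adjusted p = 0.811).

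The calls of miR-16-1-3p rest on few reads. Of its 847 reads in all, 61.7% had a templated 3′ extension and 6.14% (52 reads) had the reference ends. The non-templated 3′ share was 20% to 37.3% in replicate 1 and 2.56% to 15.4% in replicate 2. Its change was not tested on reference-end reads alone. Leaving out 1 library at a time moved the adjusted p for any change between 0.0152 and 0.0775 (edgeR), and the call was lost without 0 h, 1 h, 2 h, 6 h or 8 h replicate 2, or without 4 h, 6 h or 12 h replicate 1. The 6 h call was lost in 13 of 16 omissions, at log2 changes of -1.26 to -0.94, and held without 4 h replicate 2 or without either 10 h library. It was also lost in limma-voom (-1.12), which called the 4 h change instead (-1.13).

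miR-16-2-3p, from the Smc4 locus on chromosome 3, was counted at 61 and 70 reads at 0 h, 60 and 55 at 1 h, 53 and 44 at 2 h, 58 and 64 at 4 h, 48 and 38 at 6 h, 42 and 47 at 8 h, 48 and 56 at 10 h, 54 and 39 at 12 h. Its 14 later libraries lay below both 0 h libraries in CPM, as for 14 of 449 miRNAs (3.12%), miR-16-5p among them. The gap was small, with the highest later library at 8.49 CPM and the lowest 0 h library at 8.53 CPM. No change was called (adjusted p = 0.825 for any change, edgeR). The 2 arms stood near each other in mean level, at 7.76 CPM for miR-16-1-3p and 7.64 CPM for miR-16-2-3p. The read ratio of miR-16-1-3p to miR-16-2-3p in replicates 1 and 2 was 0.984 and 1.14 at 0 h, 1.22 and 1.53 at 1 h, 1.13 and 1.39 at 2 h, 0.448 and 0.688 at 4 h, 0.625 and 0.684 at 6 h, 0.976 and 0.553 at 8 h, 1.23 and 0.696 at 10 h, then 1.54 and 1.41 at 12 h. Every library at 4, 6 and 8 h lay below both 0 h libraries, though 8 h replicate 1 was close to the lower of them (0.976 against 0.984). At 10 h the replicates fell on either side. This ratio was not tested. miR-15a-3p, which shares the Dleu2 locus with miR-16-1-3p, had 11 to 39 reads per library and was not called (adjusted p = 0.703 for any change, edgeR). Its log2 change from 0 h was -0.69 at 4 h (95% interval -1.52 to 0.13) and -0.07 at 6 h (-0.87 to 0.72). At 12 h it was -0.65 (-1.49 to 0.19). Whether miR-15a-3p and miR-16-1-3p differed in their course was not tested. miR-195a-3p had 0 to 16 reads (adjusted p = 0.126).

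**Figure D5:**
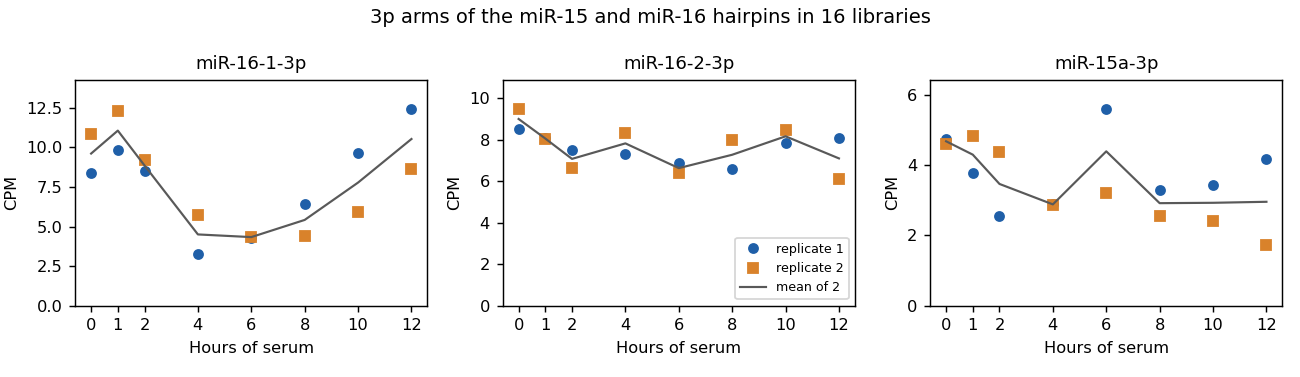
Level in CPM (linear axes from 0) of miR-16-1-3p, miR-16-2-3p and miR-15a-3p against hours of serum; circles are replicate 1, squares replicate 2, lines the mean. miR-16-1-3p was at 4.34 CPM at 6 h against 9.61 CPM at 0 h.

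miR-322-5p and miR-503-5p, which share the seed or nearly so and come from neighbouring hairpins on chromosome X, are known to restrain the cell cycle in differentiating muscle cells. miR-503-5p fell with time, by 1.48 on the log2 scale over 12 h (95% interval -2.09 to -0.87; adjusted p = 0.00106, edgeR), on 8 to 45 reads per library. miR-322-5p, at 1249 to 2706 CPM, had a slope of -0.34 that was not called (adjusted p = 0.322, edgeR). With the replicate number as a block the slope was -0.37 and called (adjusted p = 0.00403), as were 31.4% of all miRNAs in that fit. Replicate 2 was lower than replicate 1 at 8 of 8 times, by a median of -0.71 on the log2 scale. Whether the members differed from miR-503-5p in slope was not tested.

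The cell type label was checked on miRNA markers. All 7 fibroblast or mesenchymal markers were above 10 CPM and together held 415118 to 427229 CPM at 12 h, against 336852 to 342279 CPM at 0 h. They were miR-143-3p, miR-145a-5p, miR-199a-5p, miR-199a-3p, miR-214-3p, miR-21a-5p and miR-22-3p. The sum rests mainly on miR-22-3p, miR-143-3p and miR-21a-5p, with means of 146676, 136120 and 69068 CPM, and does not show how each marker moved. Blood markers summed to at most 4.09 CPM, muscle markers to at most 2.67 CPM and pluripotent markers to at most 0.678 CPM. These sums cover the markers that had an entry, 5 of 6 for blood, 3 of 4 for muscle and 3 of 6 for pluripotent cells. Liver and gut markers summed to 647 to 885 CPM, neural markers to 179 to 359 CPM and epithelial markers to 69.7 to 140.4 CPM. Of these, 2 of 4 liver and gut, 1 of 4 neural and 1 of 7 epithelial markers averaged 10 CPM or more, with 3 of the 4 neural markers having an entry. The part of these shifts in the members' levels was not tested.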

How the data were processed

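Total RNA (1000 ng per library, miRNeasy extraction) went into the Illumina TruSeq small RNA kit, per the labels' protocols. The authors deposited raw counts of reads per mature miRNA and end class, 1 column per library, per the file headers; the submitters' processing notes name CASAVA 1.8.0. The aligner, build and annotation release: not given in the sources used here. Of 6511 entries, 1 identical duplicate and 3 with no full class name (at most 1 read in a library) were left out. A miRNA's total was the sum of its reference, trimmed, 3′ and 5′ classes; entries for added bases repeat the non-templated class and were not added again.

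Totals were fitted with edgeR 4.0.16 (limma 3.58.1, R 4.3.3): TMM with factors of 0.935 to 1.07, a low-count filter (filterByExpr, minimum count 10), quasi-likelihood tests over all 16 libraries, Benjamini-Hochberg adjustment over the 449 miRNAs kept, threshold 0.05. All 6 members passed the filter. The standard error behind an interval was the size of the log2 change over the square root of F. End-form and arm shares were fitted with limma on log2 odds (0.5 reads added; at least 100 reads per library on average for a miRNA and 10 for a form). DESeq2 1.42.0 and limma-voom were alternatives. The scripts were checked on simulated data.

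The design text calls the replicates independent experiments. Differences between replicate 1 and replicate 2 correlated between times across the 449 miRNAs (r from 0.134 to 0.602, over 0.1 in 28 of 28 pairs of times), so the numbers were taken to pair the samples and the replicate block was run as an alternative. Whether the experiments used separate cultures beyond this is not stated.

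The text names the 6 members, the opposite arms of their hairpins, tested miRNAs with the same seed, miR-503-5p, and for each member the 3 miRNAs of at least 10 CPM with the most similar profile. Members and lists were chosen with earlier results of these data known.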

Additional observations from a re-analysis of the deposited data

How the results depend on the processing

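The test for any change called 0 members under 24 alternatives; the 10 CPM filter left miR-195a-5p and miR-497a-5p untested. Arm balance called 0 hairpins under 22; the filter at 1000 reads per miRNA left miR-15a and all forms of miR-15b-3p untested. With total counts 1 of 42 comparisons with 0 h was called (miR-16-5p at 12 h, -0.39) and 3 of 6 trends. All other alternatives called 0. Member end forms called were 7 with the replicate block (631 over all miRNAs), 1 in replicate 1 alone (439) and 2 to 5 on leaving out a library (425 to 472), 5 without 12 h replicate 1. The replicate block called 110 miRNAs in the table for any change, against 62 without it, 66 against 34 at 4 h 77 against 35 at 6 h and 108 against 64 at 12 h. It added calls for end forms, for miR-16-1-3p at 4 h and for miR-322-5p (any change, trend, 4 h, 6 h and 12 h); of the members' totals it called 0. Uncalled values crossed 0 as follows, and the cause was not tested. With total counts the 12 h change was -0.15 for miR-195a-5p, -0.14 for miR-497a-5p and -0.027 for miR-16-1-3p, and the slope of miR-497a-5p over 12 h was -0.085. With reference-end reads only miR-15b-3p had 0.23 at 12 h and a slope of 0.13; with a 10 CPM filter its 12 h change was 0.011. With only the 2 groups compared miR-195a-5p had -0.00622 and miR-497a-5p -0.00349 at 12 h, and miR-497a-5p had -0.023 in limma-voom. In replicate 1 alone slopes were 0.015 for miR-15b-3p, -0.11 for miR-497a-5p, 0.37 for miR-16-1-3p, and arm balance -0.19 for miR-15a and -0.14 for miR-15b, which was -0.054 without the 0 h libraries. On leaving out a library the 12 h changes ran from -0.25 to 0.051 (miR-15b-5p), -0.070 to 0.055 (miR-15b-3p), -0.16 to 0.21 (miR-195a-5p), -0.32 to 0.33 (miR-497a-5p) and -0.13 to 0.40 (miR-16-1-3p), the slope of miR-497a-5p from -0.013 to 0.22 and the arm balance of miR-15b from -0.082 to 0.16. Without filter 101 and with a 10 CPM filter 39 miRNAs were called for any change. The 10 CPM filter called 15 at 4 h and 20 at 6 h. Leaving out a library gave 36 to 60 for any change, 14 to 36 at 4 h, 16 to 38 at 6 h, 37 to 65 at 12 h and 96 to 120 for the trend, 59 without the 0 h libraries and 60 in replicate 2 alone. For the lone sample left at a time the spread of the other times was assumed. Each time had 2 libraries, which limits the precision, as do the low counts of miR-195a-5p, miR-497a-5p and the opposite arms.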

Other observations

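The profiles most like each member were found by Pearson correlation of log2 CPM over the 16 libraries among 262 other miRNAs that averaged 10 CPM or more. The libraries share their experiment and run, so these values are descriptions and carry no p. For miR-15a-5p they were miR-322-5p (r = 0.95), miR-106b-5p (0.93) and miR-872-5p (0.92), and miR-322-5p, like miR-15a-5p, was lower in replicate 2 at 8 of 8 times. For miR-15b-5p they were miR-23b-3p (0.80), miR-3102-3p (0.80) and miR-664-3p (0.76). For miR-16-5p they were miR-500-3p (0.74), miR-872-3p (0.71) and miR-467d-3p (0.70). For miR-15b-3p they were miR-218-5p (0.75), let-7a-1-3p (0.72) and miR-199a-3p (0.70). For miR-195a-5p the closest was miR-138-5p (0.68) and for miR-497a-5p miR-671-3p (0.44).

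Members were not most like one another. miR-15a-5p and miR-16-5p had r = 0.54, miR-15b-5p and miR-16-5p had 0.39, and miR-15a-5p and miR-15b-5p had -0.39. The 2 arms of the miR-15b hairpin had r = 0.06, and the chromosome 11 neighbours miR-195a-5p and miR-497a-5p had 0.33. These values were not adjusted for the experiment. Replicate 2 differed from replicate 1 by a median of -0.37 for miR-15a-5p and 0.32 for miR-15b-5p on the log2 scale. miR-195a-5p and miR-497a-5p varied little beyond counting error (chi-square per degree of freedom 1.61 and 0.782). Whether members are regulated together was not tested.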
